A study of Mus musculus with 2 samples.

Results

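The 10 genes described here encode the elastic core, the scaffold and the crosslinking enzymes of elastic fibres. They are Eln, Mgp, Fbn1, Fbln1, Fbln2, Fbln5, Efemp1, Lox, Loxl1 and Loxl2, and they were read on 2 arrays through every probe that carries one of these names, which gave 17 probes for 10 of the 30153 genes on the array. The genes were chosen by name for their place in the elastic fibre, but with earlier results of the same arrays in view, in which Eln and Mgp were far brighter in Sox9+EpCAM- cells. Their differences between the arrays are therefore given as a description, with no test.

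One array held RNA of mature hepatocytes (MHs) of healthy liver, which the methods obtained by collagenase perfusion, low-speed centrifugation and a Percoll gradient. The other held RNA of Sox9+EpCAM- cells, called biphenotypic hepatocytes by the study and sorted by FACS for the green fluorescent protein of Sox9-EGFP mice and for lack of the ductal surface protein EpCAM. These mice had been fed DDC (3,5-diethoxycarbonyl-1,4-dihydro-collidine) to injure the bile ducts chronically, and the comparison asks how the sorted cells differ from MHs. The methods describe both livers as those of Sox9-EGFP mice, in which the fluorescent protein reports activity of the Sox9 gene. The age of the mice and the number behind each RNA are not given in the sources used here. A feeding time of 2 weeks is stated for cells of the same gate measured by quantitative PCR, and not expressly for the array. Both RNAs were hybridised as Cy3-labelled samples on Agilent arrays of 60-base probes, on 1 slide read in 1 scan, so there are 2 arrays with 1 array in each group, and no value below has an SD over mice. DDC feeding, the route of isolation and the array cannot be told apart in this design.

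An elastic fibre has a core of elastin, the product of Eln, laid down on a scaffold of fibrillin microfibrils whose main protein in adult tissue is encoded by Fbn1. Fibulins (Fbln1, Fbln2, Fbln5 and Efemp1) sit between core, microfibrils and neighbouring matrix, and Fbln5 helps to bring elastin and its crosslinking enzyme together. Lysyl oxidases (Lox, Loxl1, Loxl2) oxidise lysines of elastin and collagen so that the chains become covalently joined, and matrix Gla protein (Mgp) is a small secreted protein that keeps soft tissue and arteries free of mineral. In healthy liver such fibres are known mainly from portal tracts and vessel walls, and fibrous scars contain more of them.

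Of 43020 gene spots, the MH array had 27523 well above background and the Sox9+EpCAM- array 32158, and 0 were saturated. The intensity is the fluorescence of a spot in arbitrary units after background subtraction, with a 75th percentile of 741 for MHs and 1110 for Sox9+EpCAM- cells. Each intensity was divided by the percentile of its own array before the arrays were compared, and a fold is the ratio of these scaled values, Sox9+EpCAM- over MH. A probe too dim on one array was given its own signal there or the lowest signal that counted as well above background (27.8 for MHs and 18.4 for Sox9+EpCAM- cells), whichever was larger, and its difference is then a lower bound, written as "at least". With 1 array a group, a difference of 4-fold served as the rule of size in place of a test. Spots of the same probe, for probes printed at least 8 times, had a median SD of 0.08 on the log2 scale on both arrays, which covers the printing and reading of spots and not the variation between mice. Both samples are labelled male, but only the MH array had an Xist signal well above background, and of 5 probes for 4 genes of the Y chromosome the MH array had 0 above background and the Sox9+EpCAM- array 4, so the label of the MH sample and these signals disagree, and sex cannot be told apart from the groups either. All 10 hepatocyte markers read, among them Alb and Hnf4a, were well above background on each array, but so were 7 of 8 bile duct and 9 of 10 leukocyte markers, so this does not settle how pure the samples were.

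The probe sequences below show what was read at the genes on which the account turns. They are the probes of Eln and Mgp, which had the highest bounds, and those of Loxl1, Loxl2 and Fbln1, where several probes of a gene allow the readings to be set side by side. They run from 5′ to 3′, and the coordinates are those the array design gives on mm9. Capitals mark the longest stretch that a probe shown whole shares with a probe of another member, and entries of 30 bases are the first 30 of the probe.
Eln, chr5:135179129-135179188 (minus strand): ataccggaagccttgacgatggatttggtg
Mgp, chr6:136821125-136821184 (minus strand): gccgaggagccagatattagcgcgaagaaa
Loxl1, probe 1, chr9:58145451-58145510 (minus strand): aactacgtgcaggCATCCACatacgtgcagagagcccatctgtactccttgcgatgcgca
Loxl1, probe 2, chr9:58138570-58138629 (minus strand): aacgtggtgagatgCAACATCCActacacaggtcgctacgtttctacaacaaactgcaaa
Loxl2, probe 1, chr14:70090017-70090076 (plus strand): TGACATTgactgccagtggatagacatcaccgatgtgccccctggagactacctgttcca
Loxl2, probe 2, chr14:70092141-70092200 (plus strand): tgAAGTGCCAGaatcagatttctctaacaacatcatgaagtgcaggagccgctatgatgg
Loxl2, probe 3, chr14:70095254-70095313 (plus strand): caccaaaggcttcgggactcctgtgtgtag
Fbln1, probe 1, chr15:85081927-85081986 (plus strand): ctgagaataacctactaccacctctctttt
Fbln1, probe 2, chr15:85115550-85115609 (plus strand): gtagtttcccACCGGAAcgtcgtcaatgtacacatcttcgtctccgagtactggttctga
Fbln1, probe 3, chr15:85115998-85116057 (plus strand): ttttttaaccaacggggctctttgtgtttc
Probes are numbered in the direction of transcription. Over all 17 member probes the longest stretch shared between probes of different members was 9 bases, and 0 of them share 20 bases with a probe of any other gene, which 7.19% of 39429 probes on the array do.

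All 10 members gave a higher scaled intensity on the Sox9+EpCAM- array, but the sizes ranged from 1.45-fold for Loxl2 to at least 134-fold for Eln. Of the 10, 7 were at least 4-fold higher and 0 at least 4-fold lower, while 5.59% of the 23417 genes well above background on at least 1 array were at least 4-fold higher and 5.57% at least 4-fold lower. These shares stand for 1309 and 1304 genes, and the balance depends on the scaling, with 1650 higher and 1006 lower when scaled to Gapdh and 1130 higher and 1563 lower in the deposited table. The median log2 difference of the members was 3.63, a 12.4-fold difference, with bounds taken at their value, and it was -0.04 over all these genes. With another background correction the median of the members was 2.68, and 612 genes were at least 4-fold higher and 660 lower. Without the bound the median of the members was 4.43. Because the genes were picked with high values among them already known, nothing is read from the gap between these shares. By their status, 4 members were well above background on both arrays and 6 on the Sox9+EpCAM- array only, a state that 3610 of all 30153 genes shared. By the values as given, with bounds at their lowest, Efemp1 (at least 3.30) and Loxl1 (1.89) stood on either side of the rule of size at 2 on the log2 scale, though a bound leaves the true place of Efemp1 open upwards.

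**Figure D1:**
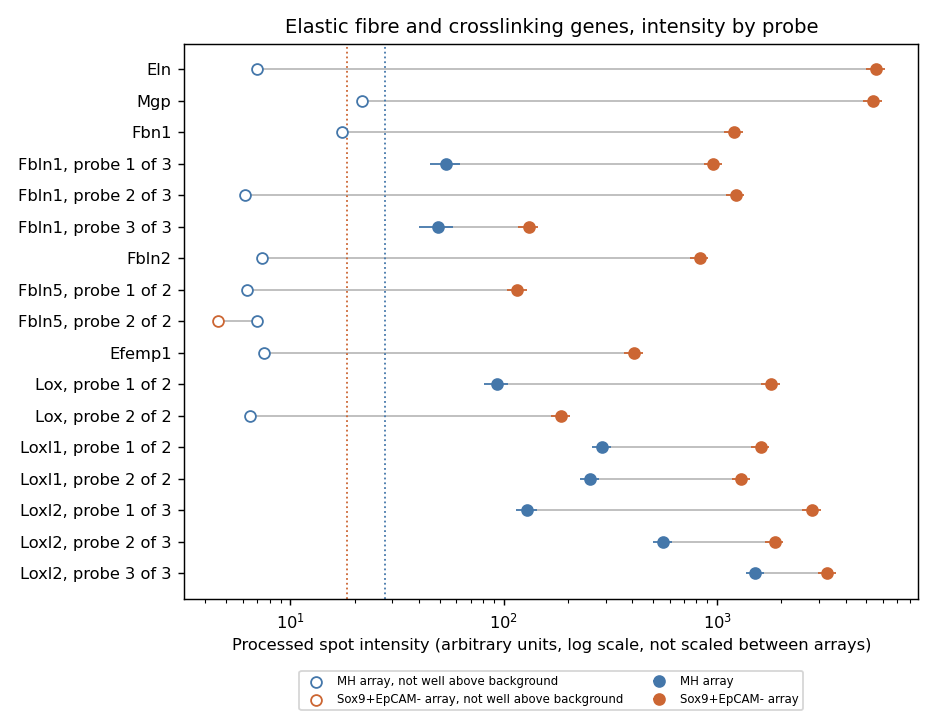
Processed spot intensity (arbitrary units, log scale, before scaling) of each of the 17 member probes on the MH array and the Sox9+EpCAM- array, with the error of the scanner software as bars. Open circles mark probes not well above background, and dotted lines the lowest signal well above background on each array (27.8 and 18.4). On the MH array 9 of 17 probes are open, and on the Sox9+EpCAM- array 1.

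The plot of intensity by probe shows where the MH array stopped measuring. On it 8 of 17 member probes were well above background, against 16 of 17 on the Sox9+EpCAM- array. The single probe below background on both belongs to Fbln5. Of all 43020 gene spots, 27523 passed this level with MH RNA and 32158 with Sox9+EpCAM- RNA, so more spots of any gene were detected in the sorted cells. Eln and Mgp were also known to be bright there when the genes were chosen, and nothing is read from the gap between the member counts. No probe had a scaled signal on the MH array that exceeded its value on the Sox9+EpCAM- array among the 16 with a difference.

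Eln, which encodes the elastic core itself, gave an intensity of 7.00 ± 6.98 with MH RNA, where the error is that of the scanner software for 1 spot, and 5570 ± 557 on the Sox9+EpCAM- array. The MH spot was not well above background, so elastin RNA had no measured level in MHs, and in Sox9+EpCAM- cells it was at least 134-fold higher. The log2 bound was 7.06, and 11 genes of the array had bounds of at least 100-fold on the Sox9+EpCAM- array only. Under another background correction (normexp, which adds an offset to every spot) the Eln bound was 5.32 on the log2 scale.

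Mgp, the inhibitor of mineral deposition, gave an intensity of 21.6 ± 8.61 with MH RNA, not well above background, and 5390 ± 539 with Sox9+EpCAM- RNA. By the rule for bounds it was at least 129-fold higher in the Sox9+EpCAM- sample, a log2 bound of 7.02. The rule takes no account of the error of the MH spot, which with its error could exceed 27.8. Eln and Mgp were the pair of members past 100-fold, as were 0.0641% of the 23417 genes, and since both values are lower bounds their order is not known. With normexp the bound of Mgp was 4.97.

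Fbn1, the gene of the microfibril scaffold, gave an intensity of 17.5 ± 6.30 with MH RNA and 1200 ± 120 with Sox9+EpCAM- RNA. Its MH spot was also below the level of reliable signal, and the difference was at least 28.8-fold, or 4.85 on the log2 scale. Core and scaffold genes were thus both bright on the Sox9+EpCAM- array and without measured signal on the MH array. With normexp the value for Fbn1 was 3.38.

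Of the fibulins, only Fbln1 was measured on both arrays, and the others have lower bounds that cannot be ranked. Fbln2, a fibulin of basement membranes and elastic fibre surfaces, gave 7.36 ± 6.09 (not well above background) with MH RNA and 828 ± 82.9 with Sox9+EpCAM- RNA, at least 19.9-fold higher, a log2 bound of 4.31 that was 2.82 with normexp. Efemp1, which encodes fibulin-3, gave 7.56 ± 7.53 (not well above background) with MH RNA and 409 ± 41.3 with Sox9+EpCAM- RNA, at least 9.82-fold higher. Of the pair, Efemp1 is the one whose place past 4-fold depended on the processing, as its log2 bound was 1.61 with normexp.

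Fbln5 is the fibulin that brings elastin and lysyl oxidase together. One probe gave 6.26 ± 6.24 (not well above background) with MH RNA and 116 ± 12.3 with Sox9+EpCAM- RNA, at least 2.79-fold higher. The other probe of Fbln5 was not well above background on either array, at 6.94 and 4.56. The dim signal of the first probe leaves room for a bound of this size only, so a larger difference could not have been measured with these spots, and with normexp the bound was 0.54 on the log2 scale.

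Fbln1, a fibulin of elastic fibres and basement membranes, was read by 3 probes that did not give the same difference. The first probe, which the array design assigns to a separate Ensembl transcript of the gene, gave an intensity of 53.8 ± 8.53 with MH RNA and 961 ± 96.2 with Sox9+EpCAM- RNA, 11.9-fold higher, and it stands for the gene because the mean of its log2 values over the arrays was the highest, although the second probe had the higher mean on the linear scale. The second had 6.11 ± 6.09 (not well above background) and 1220 ± 123, at least 29.3-fold higher. The third, which lies farthest along the gene, had 49.0 ± 8.85 and 131 ± 13.9, 1.78-fold higher. All 3 probes were brighter on the Sox9+EpCAM- array, but their log2 differences spanned 4.03, from 0.84 to at least 4.87, far beyond the errors of 0.30 for the third probe and 0.27 for the first that the scanner software allows. The 3 probes cover a span of 34131 bases, and with normexp the value for Fbln1 was 2.55.

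Lox, the lysyl oxidase best known for joining elastin and fibrillar collagen, gave an intensity of 92.8 ± 11.6 with MH RNA and 1790 ± 179 with Sox9+EpCAM- RNA at the probe that stands for the gene. Both spots were well above background, and the Sox9+EpCAM- signal was 12.9-fold that of MHs, or 3.69 ± 0.23 on the log2 scale. The second probe of Lox had 6.45 ± 6.42 (not well above background) and 185 ± 19.0, at least 4.44-fold higher, so both probes passed 4-fold. With normexp the value for Lox was 2.82 on the log2 scale, and by the median of its probes 2.92. Among the 19235 genes measured on both arrays, Lox stood at the 99.4th percentile of the log2 difference and Fbln1 at the 99.3rd.

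Loxl1, the lysyl oxidase that acts chiefly on elastin, was measured on both arrays by both of its probes. The first gave an intensity of 288 ± 29.5 with MH RNA and 1600 ± 160 with Sox9+EpCAM- RNA, 3.71-fold higher. The second had 254 ± 26.3 and 1300 ± 130, 3.42-fold higher. The log2 differences of 1.89 and 1.77 lay 0.12 apart, within the error of 0.21 on each, and both were below 4-fold, though with scaling to Gapdh the first reached 2.16 on the log2 scale. Loxl1 stood at the 95.5th percentile of the genes measured on both arrays.

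Loxl2, a lysyl oxidase that also acts on basement membrane collagen, had the smallest difference of the members by the probe that stands for it, and like Fbln1 it was read differently by different probes. The third probe, which had the highest mean, gave an intensity of 1510 ± 151 with MH RNA and 3290 ± 329 with Sox9+EpCAM- RNA, 1.45-fold higher. The second had 557 ± 56.0 and 1860 ± 186, 2.23-fold higher. The first had 129 ± 14.5 and 2780 ± 278, 14.4-fold higher. From the first probe to the last the log2 differences were 3.85 ± 0.22, 1.16 ± 0.20 and 0.54 ± 0.20, with the error of the scanner software, so they became smaller along 5297 bases of the gene. Only the first probe passed 4-fold, and by the third Loxl2 stood at the 79.3rd percentile of the genes measured on both arrays.

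**Figure D2:**
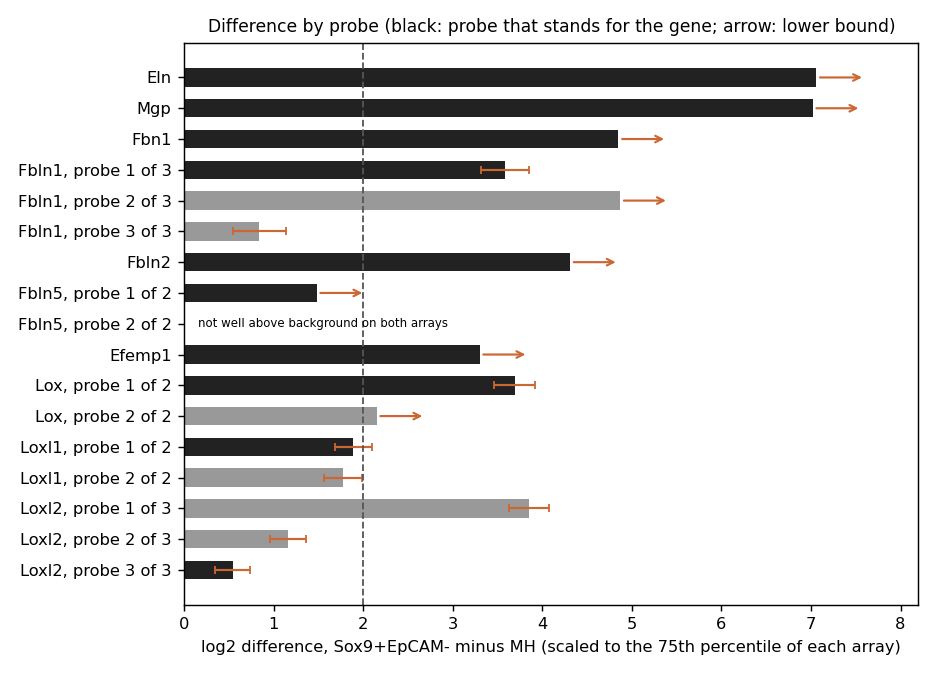
The log2 difference (Sox9+EpCAM- minus MH, each array scaled to its 75th percentile) of each member probe, with probes of a gene numbered in the direction of transcription. Bars with error lines (scanner software error) were measured on both arrays, bars with an arrow are lower bounds, black bars stand for the gene, and the dashed line is 4-fold. The Fbln1 probes run from 0.84 to at least 4.87 and those of Loxl2 from 0.54 to 3.85.

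The plot of differences by probe sets these readings side by side. Of the 16 probes with a difference, 10 were at least 4-fold higher, some of them probes of the same gene. The share over all probes of the array was not computed, and by gene it was 5.59% of 23417. By the probe that stands for them, 6 of 10 members were at least 10-fold higher, as were 1.55% of the 23417 genes. Among the genes with several probes, the probe farthest along the gene had the smallest difference in Fbln1 and Loxl2, while those of Loxl1 did not differ beyond their error. In Lox and Fbln5 the order is not known, as 1 value is a bound or absent. Which transcripts each probe detects could not be read here, since no genome annotation of mm9 was used, and the part of probe position in these differences was not tested.

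Promoter sequences, taken as 250 bases before the start site from the RefSeq-based table on GRCm38.p6, were held for 5 of the 10 members. The 3 with a single start site and at least 9.82-fold higher signal are shown, because these genes had no measured level on the MH array. They run 5′ to 3′ along the strand of the gene. Capitals mark the GC box, written GGGCGG, and the AP-1 site, written TGANTCA. Both strands were searched for these, for the letters of a TATA box (TATAAA), for the core of the TEAD motif (GGAATG) and for the CArG box of serum response factor.
Fbn1, chr2:125506439-125506688 (minus strand): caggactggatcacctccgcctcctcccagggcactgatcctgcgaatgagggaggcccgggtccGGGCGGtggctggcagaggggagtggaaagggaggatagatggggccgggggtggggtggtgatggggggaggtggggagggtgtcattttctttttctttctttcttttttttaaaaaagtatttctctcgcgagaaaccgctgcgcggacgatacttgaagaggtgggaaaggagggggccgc
Fbln2, chr6:91212514-91212763 (plus strand): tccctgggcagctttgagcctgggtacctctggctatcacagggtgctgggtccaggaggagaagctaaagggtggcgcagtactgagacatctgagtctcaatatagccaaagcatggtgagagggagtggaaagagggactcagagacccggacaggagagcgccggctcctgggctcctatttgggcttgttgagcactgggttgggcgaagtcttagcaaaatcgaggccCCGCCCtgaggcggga
Efemp1, chr11:28852955-28853204 (plus strand): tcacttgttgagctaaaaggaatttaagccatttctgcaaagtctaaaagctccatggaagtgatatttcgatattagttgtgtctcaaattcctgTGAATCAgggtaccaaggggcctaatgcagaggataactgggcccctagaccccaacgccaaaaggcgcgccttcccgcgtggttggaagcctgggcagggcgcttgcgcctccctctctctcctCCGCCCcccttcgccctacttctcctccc
The GC box, which 32.9% of 27018 promoters of this length hold, was present in at least 1 window of all 5 members, at 185 bases before the start in Fbn1, 16 in Fbln2 and 29 in Efemp1. These 5 members have 7 start sites, and 1 window of Fbln1 and 1 of Fbln5 held no motif. The count by gene is therefore not of the same kind as the share by promoter. The AP-1 site, held by 6.87% of the promoters, occurred in 1 of the 5, at 154 bases before the start of Efemp1. The letters of the TATA box (13.0% of promoters), the TEAD core (12.6%) and the CArG box (1.40%) were in 0 of the 5. These matches are descriptions of the windows and say nothing of binding.

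Genes that work beside the members were read from 6 lists, which hold 75 genes and were also drawn up with earlier results of these arrays known. Of the 67 well above background on at least 1 array, 17 (25.4%) were at least 4-fold higher and 3 (4.48%) at least 4-fold lower, with a median log2 difference of 0.70. The higher genes were spread unevenly over the lists, as the plot of related genes shows, and most genes of 5 lists lay within 4-fold.

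**Figure D3:**
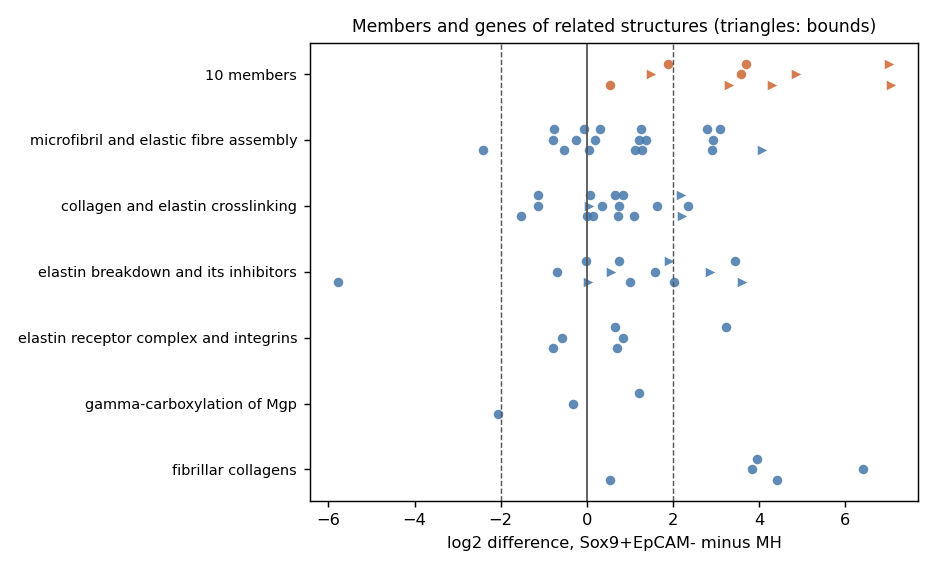
The log2 difference (Sox9+EpCAM- minus MH) of the 10 members and of the genes in 6 related lists, 1 symbol a gene. Circles were measured on both arrays, triangles are bounds that point away from 0, and dashed lines are 4-fold. Of the fibrillar collagens (median 3.95) 4 of 5 lie past 4-fold, and the assembly genes centre near 0 (median 0.26). Genes too dim on both arrays and 4 genes whose bound gave no fold are not drawn.

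Microfibril and elastic fibre assembly genes were split, with 5 of 22 at least 4-fold higher, 1 at least 4-fold lower and 16 within 4-fold. The count depends on the probe that stands for a gene. Ltbp1 and Ltbp3, counted within 4-fold at log2 differences of -0.54 and 1.29, had other probes at 4.25 and 2.96. Both were named after their values were seen. Efemp2, the fibulin-4 gene needed for elastic fibre formation, gave 6.33 (not well above background) with MH RNA and 697 with Sox9+EpCAM- RNA, at least 16.7-fold higher. Emilin2, which encodes a glycoprotein of the elastin and microfibril interface, was 8.59-fold higher. Adamts10, which encodes a protease-family protein of microfibrils, was 7.61-fold higher. The proteoglycan gene Bgn and the microfibril-associated Adamtsl2 were 7.52-fold and 6.98-fold higher. In the other direction Mfap2, which encodes a small protein of fibrillin microfibrils, gave 765 with MH RNA and 214 with Sox9+EpCAM- RNA, 5.35-fold lower, though its other probe had a log2 difference of -0.39. Emilin1, Fbn2, Ltbp4 and Mfap4 differed by less than 4-fold, with log2 differences of 1.38, 1.25, 0.04 and -0.25, while other probes of Fbn2 and Ltbp4 read -0.62 and 1.92, so the companions of Fbn1 in the microfibril did not all lie with it.

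Among the genes of collagen and elastin crosslinking, 3 of 18 were at least 4-fold higher and 0 lower, and the count of higher genes was 1 with normexp and also 1 with quantile normalization. Atp7a, which loads copper onto lysyl oxidases, gave 252 with MH RNA and 1940 with Sox9+EpCAM- RNA, 5.14-fold higher. P4ha1, a prolyl hydroxylase subunit, and Plod2, a lysyl hydroxylase of collagen telopeptides, were at least 4.60-fold and at least 4.56-fold higher, P4ha1 by one of its probes only. The other lysyl oxidase genes of the array did not reach 4-fold, as Loxl4 was 3.07-fold higher (another of its probes had a log2 difference of 3.54) and Loxl3 was not well above background on either array. In the other direction but within 4-fold lay Crtap, needed for collagen prolyl 3-hydroxylation, at 2.87-fold lower, P4ha2 at 2.20-fold lower and Plod1 at 2.19-fold lower, the last with another probe at a log2 difference of 2.99. These 3 were named after their values were seen. Bmp1, whose protease activates the Lox precursor, was 1.81-fold higher (log2 differences of its probes from -0.05 to 0.85), and Tgm2, a transglutaminase, 1.29-fold higher (another probe had a log2 difference of 1.48).

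Fibrillar collagens, the other substrates of lysyl oxidases, had 4 of 5 genes at least 4-fold higher and a median log2 difference of 3.95. Col3a1 gave 175 with MH RNA and 22300 with Sox9+EpCAM- RNA, 85.1-fold higher. Col1a1 was 21.3-fold higher, Col1a2 15.4-fold and Col5a1 14.3-fold, all measured on both arrays. Col5a3 was 1.44-fold higher, and Col5a2 and Col11a1 were not well above background on either array.

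Of the genes for elastin breakdown and its inhibitors, 4 of 13 were at least 4-fold higher (2 with normexp) and 1 lower. Mmp2 and Mmp7, matrix metalloproteinases that cleave elastin, were too dim to measure in MHs, with bounds of at least 12.2-fold and at least 7.28-fold. The inhibitor genes Timp2 and Timp3 were 10.8-fold and 4.06-fold higher. Cela1, a pancreatic-type elastase gene, gave 964 with MH RNA and 26.1 with Sox9+EpCAM- RNA, 55.3-fold lower. Neutrophil elastase (Elane) had a log2 difference of -0.70, and the protease genes Mmp9, Mmp12 and Ctsk were not well above background on either array.

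The receptor side and the modification of Mgp each had 1 gene past 4-fold. Of 6 genes of the elastin receptor complex and integrins, 1 was at least 4-fold higher, Glb1, whose locus encodes lysosomal beta-galactosidase and the elastin binding protein, at 9.43-fold. Its partners in the complex, Ctsa and Neu1, had log2 differences of 0.70 and -0.79. Mgp protein needs carboxylation by the enzyme that Ggcx encodes, and Ggcx gave 3860 with MH RNA and 1390 with Sox9+EpCAM- RNA, 4.16-fold lower, while Vkorc1 and Vkorc1l1, which recycle vitamin K, had log2 differences of -0.31 and 1.21. The Ggcx value lay near the rule of size and inside 4-fold under 3 of the 4 other settings run for it.

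Cells other than hepatocytes are known to make elastic fibre proteins in liver, so 9 lists of cell type markers were read on the same arrays. The sums given for a list add the scaled intensities of all its genes, in multiples of the 75th percentile of the array, so bright genes weigh most. In these bulk samples fewer cells of a type and less RNA per cell cannot be told apart. Markers of portal fibroblasts, a main source of elastin in the portal tract, moved partly with the members. Of 9 such genes 4 were at least 4-fold higher, Dpt at least 64.4-fold, Cd34 9.86-fold, Lum at least 6.82-fold and Col15a1 5.62-fold, and the scaled sum of the list, most of it Dcn, was 15.8 in MHs and 21.1 in Sox9+EpCAM- cells. Its other genes lay within 4-fold, with Thy1 1.70-fold and Gli1 1.14-fold higher, Dcn 1.24-fold higher, Entpd2 at 0.882-fold and Clec3b at 0.410-fold. Another probe of Cd34 had a log2 difference of 0.10, and Dcn is also in the list of assembly genes. The part of portal fibroblast RNA in the member differences was not tested.

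**Figure D4:**
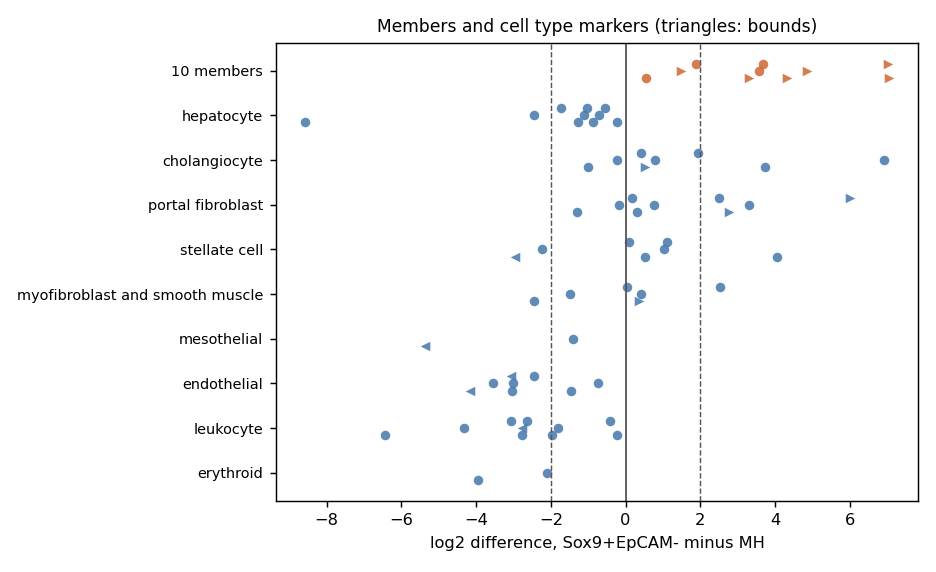
The log2 difference (Sox9+EpCAM- minus MH) of the 10 members and of the genes in 9 lists of cell type markers, 1 symbol a gene. Circles were measured on both arrays, triangles are bounds that point away from 0, and dashed lines are 4-fold. Portal fibroblast markers reach at least 6.01 (Dpt) and cholangiocyte markers 6.93 (Spp1), while endothelial and leukocyte markers lie below 0. Genes too dim on both arrays and 1 gene whose bound gave no fold are not drawn.

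Markers of stellate cells, which store vitamin A and make scar matrix when activated, went both ways. Cygb was 16.5-fold higher, Lrat at least 7.70-fold lower and Rgs5 4.75-fold lower, Reln, Colec11, Gfap and Des were 2.16-fold, 2.03-fold, 1.45-fold and 1.07-fold higher, and the defining genes Pdgfrb and Hand2 were not well above background on either array. Of 8 genes well above background on at least 1 array 1 was at least 4-fold higher and 2 lower (0 with normexp and 1 with scaling to Gapdh), and the scaled sum was 1.45 in MHs and 2.55 in Sox9+EpCAM- cells. Smooth muscle and myofibroblast markers, which vessel wall cells would carry, had 1 of 6 higher (Myh11, 5.75-fold, but 0 higher with normexp) and 1 lower (Cnn1, 5.51-fold), with Acta2 at 1.34-fold and Tagln at 1.03-fold, and scaled sums of 5.78 in MHs and 4.75 in Sox9+EpCAM- cells. Of 6 mesothelial markers, 4 (Msln, Upk3b, Upk1b and Gpm6a) were not well above background on either array, Wt1 was at least 41.6-fold lower and Lrrn4 2.65-fold lower, with scaled sums of 0.794 in MHs and 0.0618 in Sox9+EpCAM- cells.

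Bile duct cell markers were read because the sort was meant to leave EpCAM+ cells out. Of 8, 2 were at least 4-fold higher, Spp1 at 122-fold and Epcam at 13.3-fold, the latter from an intensity of 139 with MH RNA to 2770 with Sox9+EpCAM- RNA. Krt19 and Krt7 were 1.33-fold and 0.850-fold, Sox9 was at least 1.45-fold higher, and the scaled sum of the list, most of it Spp1 in Sox9+EpCAM- cells, was 2.37 in MHs and 49.0 in the sorted cells. The Epcam signal goes against what the sort was meant to leave out, and the part of duct cells in the member differences was not tested.

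Endothelial, leukocyte and erythroid markers were mostly lower on the Sox9+EpCAM- array, in the direction opposite to the members. In a FACS analysis of such cells the paper first took those without the surface proteins CD31 and CD45. For the array it names GFP and EpCAM only, but its list of FACS antibodies includes CD31, CD45 and TER119. The part of such a step in these differences was not tested. Of 8 endothelial markers 6 were at least 4-fold lower, with a scaled sum of 2.24 in Sox9+EpCAM- cells, which is 0.28 times that in MHs. Of 10 leukocyte markers 6 were at least 4-fold lower (sums of 42.8 in MHs and 14.9 in Sox9+EpCAM- cells), and of 2 erythroid markers above background both were (3.80 in MHs and 0.478 in Sox9+EpCAM- cells), though 1 was with normexp and 1 with scaling to Gapdh. The liver sinusoid and Kupffer cell genes Stab2 and Clec4f were 8.09-fold and 86.1-fold lower, with another Stab2 probe at a log2 difference of -1.73. Of 10 hepatocyte markers 2 were at least 4-fold lower (1 with quantile normalization), Cyp3a11 at 381-fold and Tat at 5.51-fold, with Alb 1.82-fold lower and Hnf4a 1.18-fold lower, and the scaled sum was 1297 in MHs and 609 in Sox9+EpCAM- cells.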

How the data were processed

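The authors deposited, per the labels and file headers, the spot intensity of each array as written by Agilent Feature Extraction 10.7.3.1, with background subtracted, spatial trends removed and no scaling between arrays, together with its error, the mean and background intensity and flags. A series table of ratio values was deposited too, and each value was checked to be the processed intensity over its array's median (96.5 and 164, SD of the log2 factor 0.0018). The labels call the labelling protocol undisclosed.

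Here, control spots and spots flagged as non-uniform or population outliers were left out, spots of a probe were averaged, and each array's log2 intensity was centred on its 75th percentile. A gene was represented by its probe with the highest mean log2 value. Probes too dim on 1 array entered at a bound, a bound on the wrong side of 0 was set to 0 in medians and gives no fold, and genes too dim on both had no difference. The error of a log2 difference combines the software errors of both spots. The members, lists and rules were chosen with earlier results of these data known. The text names all members, genes of each related list past 4-fold with up to 4 others by role, further genes where it says so, and the defining markers of each cell type. All 10 member names are current in the RefSeq table used for gene names. Python 3.11.15, pandas 2.3.3, numpy 2.4.6 and, for the normexp alternative (offset 50), limma 3.58.1 in R 4.3.3 were used. The procedure was tested on simulated data, but only for genes above background on both arrays, so the rule for bounds was not tested. The other alternatives were scaling to the median of well-measured probes, to quantiles or to Gapdh, the median or most different probe of a gene, outlier spots kept, the deposited table, unbounded differences, genes measured on both arrays only, and rules of 2-fold and 10-fold. A value counted as moved past 1.5-fold. With 1 array a group there was no test, and precision is limited by the number of arrays.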

Additional observations from a re-analysis of the deposited data

How the results depend on the processing

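All 10 members stayed higher on the Sox9+EpCAM- array in each of 94 recomputed values, of which 17 moved by more than 1.5-fold and 0 reached 0 or below. Part of this was fixed by construction, so the count does not measure stability. A bound cannot fall below 0, and settings that change the choice of probe, the outlier spots or the use of bounds left many values as they were. With normexp background correction the median log2 difference of the members was 2.68, 612 genes were at least 4-fold higher and 660 lower over all genes, crosslinking had 1 higher, breakdown 2 higher, gamma-carboxylation 0 lower, stellate markers 0 lower, myofibroblast markers 0 higher and erythroid markers 1 lower. With quantile normalization crosslinking had 1 higher, gamma-carboxylation 0 lower and hepatocyte markers 1 lower. With scaling to Gapdh, which shifted the median of the genes above background on both arrays by 0.27, gamma-carboxylation had 0 lower, stellate markers 1 lower and erythroid markers 1 lower, and the deposited table shifted that median by -0.18. Plain differences without the bound gave a median of 4.43. With only genes above background on both arrays, 2 of the 4 members measured there were at least 4-fold higher, with a median of 2.73. In that setting 758 genes were at least 4-fold higher over all, where 19235 genes were measured on both arrays. At 2-fold, 3319 genes were higher and 3918 lower, and at 10-fold 363 were higher and 344 lower. By the probe with the largest difference Loxl2 was at 3.85, and by the median of its probes at 1.16. The cause of these moves was not tested beyond what each setting changes by construction. No paired analysis was possible because there is 1 array a group. For that reason no replicate was left out, and with both arrays on 1 slide a slide block was not run. The lowest signal well above background, 27.8 on the MH array, caps how large a difference of a dim gene such as Fbln5 could be measured.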
